A study of Homo sapiens with 6 samples.

Results

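The SLC25 family holds the carriers of the mitochondrial inner membrane, with a few members in the outer membrane or the peroxisome. Its members were chosen by name, as every gene whose symbol starts with SLC25A in the deposited table of levels per gene, which gave 46 of 16330 genes. They were grouped by the substrate each is known to carry, and members whose substrate is not settled formed a group of their own. SLC25A31 and SLC25A48 are not analysed here.

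The RNA came from HN12, a cell line of human squamous carcinoma of the head and neck. Control cells received the solvent DMSO and the others CPI-613 for 24 h, and 3 libraries per group were made from total RNA. CPI-613, also called devimistat, resembles lipoate and is aimed at the pyruvate and 2-oxoglutarate dehydrogenases, which use lipoate to feed carbon into and through the tricarboxylic acid cycle. The sources used here do not give its dose. The labels do not say that replicates were separate cultures, so the spread behind each p-value may be technical.

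Most carriers exchange one solute for another across a membrane that is otherwise closed to charged metabolites. The family therefore links the cycle and the respiratory chain with the cytosol: citrate leaves for lipid synthesis, ADP enters and ATP leaves, phosphate follows, and amino acids and cofactors such as CoA and NAD+ are brought in. Carriers of this family are typically built from repeats, many of which hold a signature. It is a proline, any residue, an acidic residue, any 2 residues and a basic residue. The comparison asked which of these routes differ in transcript level after CPI-613.

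The libraries held 11531942 to 15486513 estimated counts. Of 12 markers of squamous epithelium all 12 were at 1 FPKM or more in every library (FPKM, counts scaled by transcript length and library total). Of 5 leukocyte markers 3 were in the table, and their summed level was 14.64 to 26.42 FPKM in Control and 1.88 to 3.24 FPKM with CPI-613. CD14 lay at 13.51 to 25.81 FPKM in Control and 0.96 to 2.89 FPKM with CPI-613, LYZ at 0.35 to 1.1 FPKM in all libraries, and PTPRC, the defining leukocyte gene, at 0 to 0.07 FPKM. Of 4 fibroblast markers 3 were in the table, with sums of 6.47 to 7.96 FPKM in Control and 5.71 to 6.09 FPKM with CPI-613. Most of this was COL1A1, at 5.45 to 7.48 FPKM over all libraries. PDGFRB lay at 0.21 to 0.83 FPKM and COL3A1 at 0 to 0.05 FPKM. Summed endothelial markers were at 0.25 to 0.58 FPKM in Control and 0.03 to 0.07 FPKM with CPI-613. The part of other cell types in the results below was not tested.

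The first signature in the coding sequence is shown for 8 carriers on which the results turn, with 36 bases on each side. They are the ADP/ATP carriers, the citrate carrier, and 2 pairs of relatives with shared substrates whose base composition differs. The sequences come from the spliced coding strand of GENCODE 29 (GRCh38), 5′ to 3′, with the 18 bases of the signature in capitals.
SLC25A5: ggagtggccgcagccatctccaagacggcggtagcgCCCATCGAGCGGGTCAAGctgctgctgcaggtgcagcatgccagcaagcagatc
SLC25A6: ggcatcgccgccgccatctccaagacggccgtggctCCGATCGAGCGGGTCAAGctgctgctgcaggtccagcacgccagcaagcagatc
SLC25A4: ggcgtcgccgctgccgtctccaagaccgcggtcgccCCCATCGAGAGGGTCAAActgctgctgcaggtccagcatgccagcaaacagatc
SLC25A1: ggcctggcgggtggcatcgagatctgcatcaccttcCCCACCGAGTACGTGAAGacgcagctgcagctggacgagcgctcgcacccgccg
SLC25A39: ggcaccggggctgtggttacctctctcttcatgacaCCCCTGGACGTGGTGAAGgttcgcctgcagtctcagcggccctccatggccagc
SLC25A40: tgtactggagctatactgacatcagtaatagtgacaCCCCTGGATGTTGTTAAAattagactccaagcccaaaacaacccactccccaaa
SLC25A25: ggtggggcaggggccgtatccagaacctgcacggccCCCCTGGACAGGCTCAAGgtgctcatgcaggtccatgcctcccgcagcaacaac
SLC25A24: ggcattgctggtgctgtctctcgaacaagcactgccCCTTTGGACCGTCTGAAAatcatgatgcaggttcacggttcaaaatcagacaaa

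The signature of SLC25A5 lies in exon 1 of its 4 exons, on chromosome X at 119468597 to 119468614, and that of SLC25A6 in exon 1 of 4 on chromosome X at 1391911 to 1391928. The signature of SLC25A4 lies in exon 1 of 4 on chromosome 4 at 185143454 to 185143471, and that of SLC25A1 in exon 2 of 9 on chromosome 22 at 19178185 to 19178202. For the glutathione carriers it lies in exon 3 of 12 of SLC25A39 on chromosome 17 at 44323321 to 44323338 and in exon 4 of 12 of SLC25A40 on chromosome 7 at 87856329 to 87856346. For the ATP-Mg carriers it lies in exon 6 of 11 of SLC25A25 on chromosome 9 at 128103810 to 128103827 and in exon 5 of 10 of SLC25A24 on chromosome 1 at 108157474 to 108157491. The coding sequences of SLC25A39 and SLC25A40 were 61.1% identical, but the third codon base was G or C in 74.4% of codons of SLC25A39 and 31.3% of SLC25A40. In SLC25A25 and SLC25A24, 65.6% identical, these shares were 76.6% and 46.4%. Within the ADP/ATP carriers, 77.3% to 78.8% identical, they were 59.5% in SLC25A5, 90% in SLC25A6 and 69.9% in SLC25A4.

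A few carriers led the family by level, as the plot of levels by library shows. SLC25A5 (ANT2), the ADP/ATP carrier of dividing cells, was the highest member in every library, at 470, 513 and 455 FPKM in Control replicates 1 to 3 and 380, 429 and 537 FPKM with CPI-613. SLC25A39, a glutathione carrier, ranked next by the mean over the 6 libraries, at 137, 195 and 134 FPKM in Control and 135, 151 and 215 FPKM with CPI-613. In CPI-613 replicates 2 and 3 SLC25A1 lay above it. SLC25A1, SLC25A6, SLC25A37 and SLC25A3 came next, with means of 133, 112, 91.1 and 70.8 FPKM. The spread of these neighbours over libraries overlapped. The order is by FPKM and depends on the transcript length behind it. By estimated counts SLC25A3, at 4229 to 7794, lay above SLC25A39, at 2104 to 4440, in every library. At the other end, SLC25A2, SLC25A18, SLC25A21, SLC25A47, SLC25A52 and SLC25A53 had at most 13 counts in any library and did not pass the filter on low counts, which left 40 members to test.

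**Figure D1:**
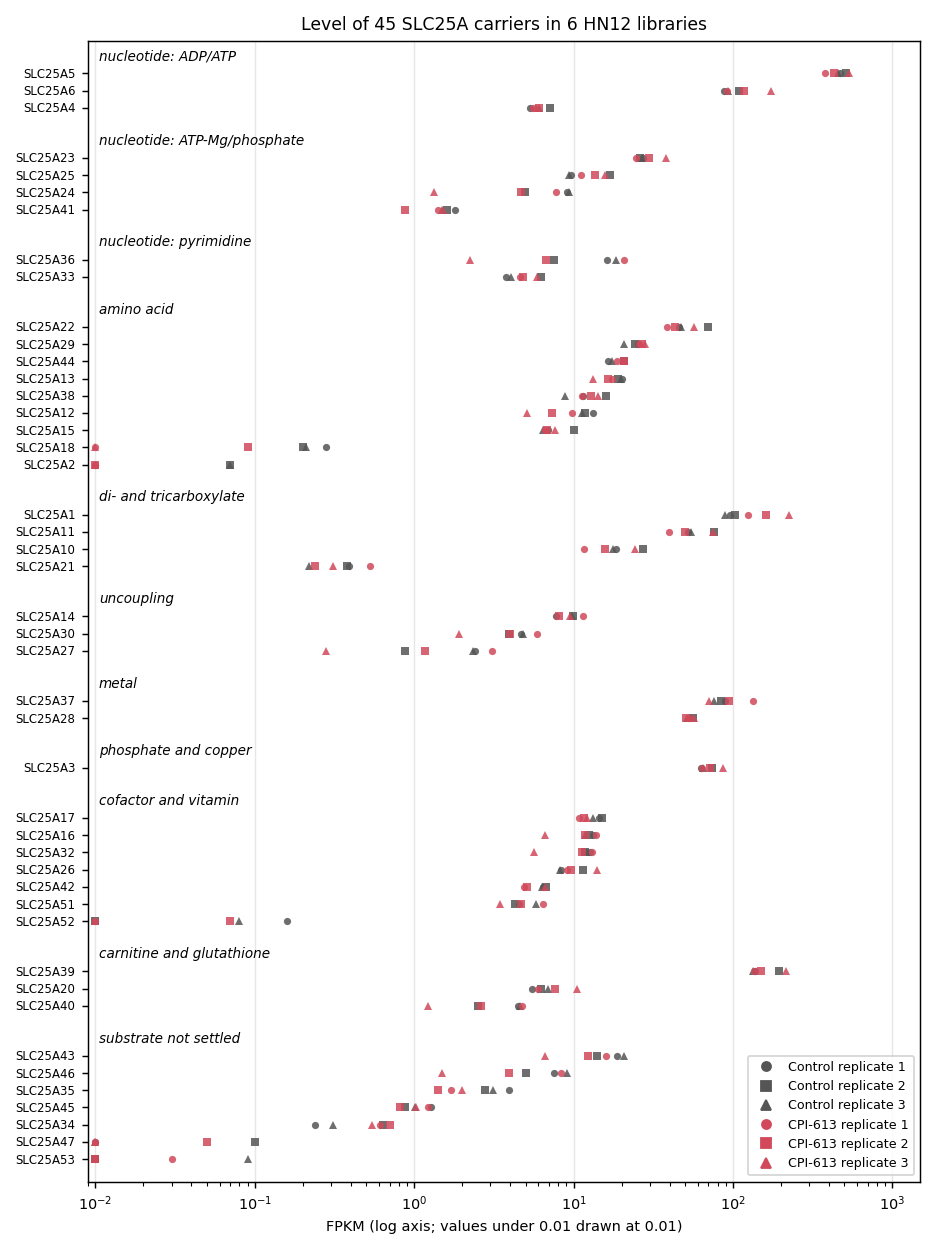
Level of 45 of the 46 carriers in FPKM (log axis, values under 0.01 drawn at 0.01) in the 3 Control and 3 CPI-613 libraries, each point 1 library, grouped by substrate. SLC25A5 lies highest in all 6 libraries, and the 6 carriers that were not tested lie under 0.6 FPKM.

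No member passed edgeR's quasi-likelihood test in either direction (0 of 40 at a Benjamini-Hochberg adjusted p of 0.05 over all genes, where 3.17% of the 12655 genes tested passed). At an unadjusted p under 0.05 there were 2 higher members, SLC25A1 and SLC25A34, and 2 lower members, SLC25A35 and SLC25A12. The share of all genes at this unadjusted p was not taken, so this count cannot be set against it and is a description. limma-voom called 0 members, and DESeq2 called SLC25A1 alone (5.93% of genes passed). The median log2 fold change was 0.09 over the members and 0.02 over all genes tested, with 23 estimates above 0 and 17 below. For 21 of 40 members the 95% interval of the change lay within 2-fold either way, and for the other 19 it reached further in at least 1 direction.

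Libraries of the same group differed with the GC content of the transcript, so fold changes are also given with the trend of each library on GC content and length taken out, called GC- and length-adjusted. In that fit 1 of 40 members was called, SLC25A1, higher (11.2% of genes passed). The median standard error of the members was 0.30 without the adjustment and 0.19 with it, and it was smaller in 35 of 40 members. The trend was fitted to these same libraries and then taken as known, so part of the smaller error follows from the method. A trend that differs between Control and CPI-613 is taken out as well. The plot of fold changes gives both values for 39 carriers.

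**Figure D2:**
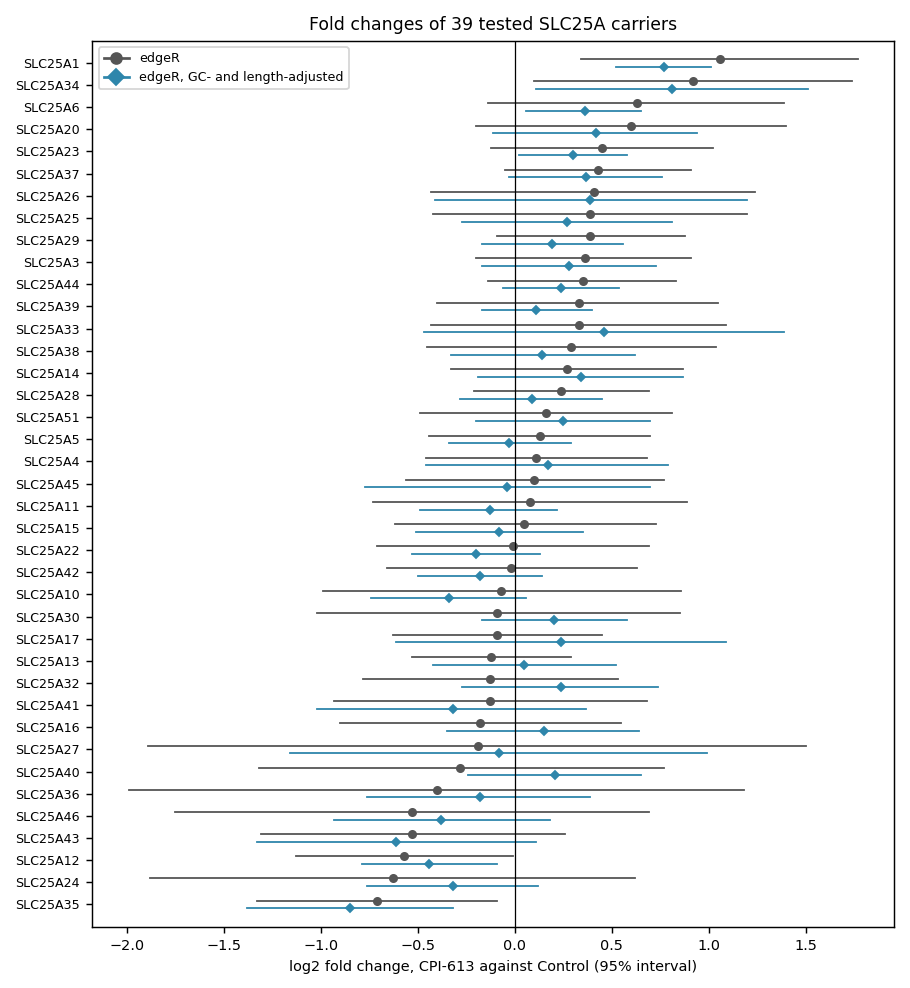
log2 fold change of 39 of the 40 tested carriers, CPI-613 against Control, with 95% intervals, from edgeR without (circles) and with (diamonds) the GC and length adjustment. SLC25A1 is the top row, at 1.06 and 0.77, and both of its intervals lie apart from 0. So do both intervals of SLC25A12, SLC25A34 and SLC25A35, and the adjusted ones of SLC25A6 and SLC25A23.

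Among the di- and tricarboxylate carriers, SLC25A1 was the member with a call. It is the citrate carrier, which exports citrate from the matrix as the source of cytosolic acetyl-CoA. It measured 114, 132 and 108 CPM (counts scaled to the TMM-normalised library size) in Control replicates 1 to 3 and 156, 228 and 352 CPM in CPI-613 replicates 1 to 3. Every CPI-613 library lay above every Control library, and CPI-613 replicate 3 was the highest. The log2 fold change was 1.06 (SE 0.30) and was not called (edgeR, Benjamini-Hochberg adjusted p = 0.141). In bulk RNA a change in some cells and a smaller change in all cells cannot be told apart.

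After GC and length adjustment SLC25A1 measured 131, 120 and 129 CPM in Control and 206, 211 and 229 CPM with CPI-613. The 2 groups remained apart, and the spread among the treated libraries was narrower. The adjusted change of 0.77 (SE 0.10) passed (edgeR, Benjamini-Hochberg adjusted p = 0.00427, range over the alternatives 0.00364 to 0.505), also with any 1 library left out. The unadjusted value passed without CPI-613 replicate 1, at 1.30 (SE 0.23, edgeR, adjusted p = 0.0217), and in no other fit that left out a library. Without that library 465 genes were called higher and 435 lower of 12741. DESeq2 placed SLC25A1 at the threshold (adjusted p = 0.0496). SLC25A1 has 5 named pseudogenes in GENCODE 29, and the sources used here do not say how reads shared with them were counted.

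The other di- and tricarboxylate carriers gave no call. SLC25A11, the 2-oxoglutarate/malate carrier of the malate-aspartate shuttle, had a mean of 83.8 ± 21.3 CPM (SD, n = 3) in Control and 88.6 ± 38.5 CPM after CPI-613. Its log2 fold change was 0.08 (95% interval -0.73 to 0.89) and turned to -0.13 (SE 0.15) after adjustment. SLC25A10, the dicarboxylate carrier that exchanges malate or succinate for phosphate, had a log2 fold change of -0.07 (SE 0.39), and -0.34 (SE 0.17) after adjustment. The group's share of the summed FPKM of the family was 11.8%, 12.8% and 11.7% in Control and 12.9%, 15.7% and 18.1% with CPI-613, and SLC25A1 is its largest part. Control and CPI-613 did not overlap in this share, nor in those of the amino acid, cofactor and vitamin, and phosphate and copper carriers. Means of the latter were 10.0% and 8.91%, 5.55% and 4.78%, and 4.58% and 4.82% in Control and CPI-613. All are parts of 1 sum, so they are not separate results. SLC25A21, the oxoadipate carrier, had 4 to 13 counts per library.

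The ADP/ATP carriers exchange cytosolic ADP for matrix ATP, and the share of each gene in their sum was taken per library. SLC25A5 made up 83.4%, 81.4% and 82.1% of their summed FPKM in Control and 79.7%, 77.7% and 75% with CPI-613. SLC25A6 (ANT3) made up 15.6%, 17.4% and 16.8% in Control and 19.2%, 21.2% and 24.2% with CPI-613. The groups did not overlap for either share. SLC25A4 takes little of the sum, so each of these shares largely fixes the other, and they are not separate results. The mean share of SLC25A5 was 82.3% ± 1.01 in Control and 77.5% ± 2.34 with CPI-613, a difference of -4.84 percentage points (two-sided exact permutation test, p = 0.1, the smallest that 3 against 3 allows). From GC- and length-adjusted CPM the share was 79.2%, 77.6% and 77.1% in Control and 73.4%, 73.5% and 73.6% with CPI-613, again without overlap.

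Per gene, SLC25A6 measured 96.4, 129.6 and 105 CPM in Control and 106, 153 and 252 CPM with CPI-613, with overlap between the groups. Its log2 fold change of 0.63 (SE 0.32) and the adjusted 0.36 (SE 0.13) were not called (edgeR, Benjamini-Hochberg adjusted p = 0.476 and 0.126), although its adjusted CPM did not overlap. SLC25A5 had means of 479 ± 46.7 and 524 ± 152 CPM, and its change of 0.13 (SE 0.24) turned to -0.03 (SE 0.13) after adjustment. SLC25A4 (ANT1), the form of heart and skeletal muscle, was at 5.34 to 7.15 FPKM in all libraries, 0.807% to 1.16% of the 3 genes, with a change of 0.11 (SE 0.24). SLC25A5 has 9 named pseudogenes and SLC25A6 has 6, and reads shared among such copies could shift between them. SLC25A6 is listed in the count table as 2 copies of each transcript with equal counts, which were summed.

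**Figure D3:**
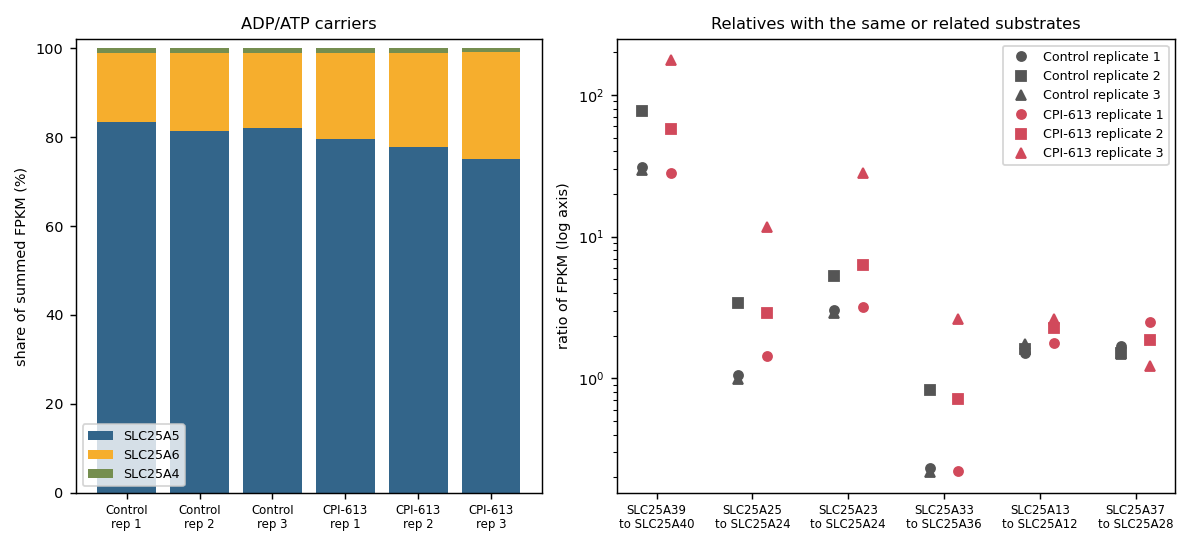
Left, shares of SLC25A5, SLC25A6 and SLC25A4 in their summed FPKM (%), 1 bar per library; the SLC25A5 share is 81.4% to 83.4% in Control and 75% to 79.7% with CPI-613. Right, ratio of FPKM between related carriers (log axis), 1 point per library; Control replicate 2 and CPI-613 replicate 3 lie highest of their group in the first 4 ratios from the left.

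The ATP-Mg/phosphate carriers set the adenine nucleotide pool of the matrix, and 3 of them carry calcium-binding domains. None of the 4 was called. SLC25A23 measured 70.2, 72.1 and 70.1 CPM in Control and 70.1, 92.7 and 128 CPM with CPI-613, with a log2 fold change of 0.45 (SE 0.24) and an adjusted 0.30 (SE 0.12). SLC25A24 measured 32.9, 19.3 and 34.8 CPM in Control and 29.7, 20.1 and 6.43 CPM with CPI-613. Control replicate 2 and CPI-613 replicate 3 were the lowest of their groups, and the change was -0.63 (SE 0.53), or -0.32 (SE 0.19) adjusted. SLC25A25 went the other way in the same libraries, at 26.9, 50.7 and 26.6 CPM in Control and 33, 45.1 and 58.6 CPM with CPI-613, with a change of 0.39 (SE 0.35). The FPKM ratio of SLC25A25 to SLC25A24 was 1.06, 3.41 and 0.998 in Control and 1.44, 2.90 and 11.7 with CPI-613, with each group spread over at least 3-fold. SLC25A41, which lacks the calcium-binding part, was at 0.87 to 1.81 FPKM.

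For SLC25A25 the shares of NM_001006641 and NM_052901 did not overlap between the groups. For each share the two-sided exact permutation test gave p = 0.1, the smallest that 3 against 3 allows. The gene's total did not pass edgeR's test. NM_001006641 took 28.0%, 33.3% and 28.6% of the gene's estimated counts in Control and 42.1%, 42.0% and 46.8% with CPI-613. NM_052901 took 69.2%, 63.5% and 71.4% in Control and 56.0%, 55.8% and 49.9% with CPI-613. Across the family, 45 transcripts of 23 members had enough counts to compare, and 9 of them, in 5 genes, had shares without overlap between the groups, 4 higher and 5 lower (14.7% of transcripts over all genes). The others were in SLC25A1, SLC25A12, SLC25A23 and SLC25A29. In SLC25A29 the model transcript XM_011536447 was listed at 0 in all 3 Control libraries and took 15.5%, 20.4% and 15.5% with CPI-613. Another model of that gene, XM_011536448, went the other way, at 20.4%, 14.2% and 12.6% in Control and 7.72%, 0% and 0% with CPI-613. Whether reads moved between these models in the estimate was not tested. The counts of transcripts of 1 gene are estimates that divide shared reads, and these transcripts were picked out after their values were seen. Shares within 1 gene add to a fixed whole, so a rise in 1 transcript goes with a fall in others. The 9 are therefore not separate results.

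The pyrimidine nucleotide carriers SLC25A33 and SLC25A36, which serve mitochondrial DNA and RNA synthesis, gave no call. SLC25A36 measured 67, 33.5 and 78.3 CPM in Control and 89.8, 33.1 and 12.2 CPM with CPI-613 (log2 fold change -0.40, 95% interval -1.99 to 1.18). The CPI-613 libraries held both the highest and the lowest value, so that the groups overlapped. SLC25A33 had a change of 0.33 (SE 0.32).

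Among amino acid carriers 0 of 7 tested members were called. SLC25A12 (aralar), a calcium-regulated aspartate/glutamate carrier of the malate-aspartate shuttle, measured 36.6, 34.8 and 32.2 CPM in Control and 28.3, 23.1 and 18.4 CPM with CPI-613. All CPI-613 libraries lay below all Control libraries. The log2 fold change was -0.57 (SE 0.24) and -0.44 (SE 0.15) adjusted, and neither was called (edgeR, Benjamini-Hochberg adjusted p = 0.333 and 0.115, range over the alternatives 0.0753 to 0.905). SLC25A13 (citrin), its relative with the same substrates, measured 51.8, 53.4 and 52.7 CPM in Control and 48.4, 50.7 and 45.9 CPM with CPI-613, a change of -0.12 (SE 0.17) that turned to 0.05 (SE 0.20) after adjustment. The FPKM ratio of SLC25A13 to SLC25A12 was 1.52, 1.60 and 1.74 in Control and 1.79, 2.26 and 2.61 with CPI-613. Without strand in the counting, reads of SLC25A12 and of METAP1D, whose exons overlap on the opposite strand, cannot be told apart.

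SLC25A22, a glutamate carrier and the highest of this group, had means of 125 ± 35.4 and 124 ± 39.4 CPM in Control and CPI-613, with an interval from -0.71 to 0.69 on the log2 scale. SLC25A29, a carrier of basic amino acids, measured 48, 47.3 and 39.2 CPM in Control and 50.3, 58.4 and 68 CPM with CPI-613, above Control in every library (log2 fold change 0.39, SE 0.21, and 0.19, SE 0.16, adjusted, where the groups overlapped). The carriers of branched-chain amino acids (SLC25A44), glycine (SLC25A38) and ornithine (SLC25A15) had changes of 0.35, 0.29 and 0.05, the last turning to -0.08 after adjustment. SLC25A18, the other glutamate carrier, had 4 to 6 counts in Control and 0 to 2 with CPI-613, and SLC25A2, an ornithine carrier, at most 1.

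The metal carriers are the mitoferrins, which bring iron in for heme and iron-sulphur clusters. SLC25A37 (mitoferrin-1), best known from red cell precursors, was the more abundant, at 289, 295 and 256 CPM in Control and 462, 369 and 302 CPM with CPI-613. The CPI-613 libraries lay above Control on this scale, but in FPKM, which carries no TMM scaling, they were at 133, 94.1 and 70.2 against 89.2, 84.2 and 75.9, and overlapped. The log2 fold change was 0.43 (SE 0.21), adjusted 0.37 (SE 0.17), with no call. SLC25A28 (mitoferrin-2) measured 62 ± 5.32 and 73.2 ± 10.6 CPM, a change of 0.24 (SE 0.19). SLC25A3, which carries phosphate for ATP synthesis and copper for cytochrome oxidase, measured 365 ± 45.7 and 468 ± 125 CPM (0.36, SE 0.24).

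Of the cofactor and vitamin carriers 0 of 7 tested were called. SLC25A26, the S-adenosylmethionine carrier, had a change of 0.41 (SE 0.35). SLC25A16 and SLC25A42, both linked to CoA, had changes of -0.18 and -0.02, or 0.15 and -0.18 adjusted. SLC25A17, the peroxisomal CoA and NAD carrier, and SLC25A32, the folate and FAD carrier, had changes of -0.09 and -0.13, both 0.24 adjusted. SLC25A51, the NAD+ carrier, had a change of 0.16 (SE 0.28). Its copy SLC25A52 is 97.7% identical in coding sequence with a shared run of 169 bases, and the split of reads between them is uncertain.

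The carnitine and glutathione carriers gave no call, and the glutathione pair differed widely between libraries. SLC25A40, the second glutathione carrier, measured 15.4, 9.32 and 16.3 CPM in Control and 17.4, 10.8 and 5.58 CPM with CPI-613, and SLC25A39 measured 165, 253 and 166 CPM in Control and 172, 217 and 344 CPM with CPI-613. In each group the library in which SLC25A39 was highest was the one in which SLC25A40 was lowest. The FPKM ratio of SLC25A39 to SLC25A40 was 30.8, 77.5 and 29.3 in Control and 28.3, 57.2 and 176 with CPI-613. The changes were 0.33 (SE 0.31) for SLC25A39 and -0.28 (SE 0.44) for SLC25A40, and 0.11 (SE 0.12) and 0.21 (SE 0.19) after adjustment. SLC25A20, which exchanges acylcarnitine for carnitine in fatty acid oxidation, measured 7.61, 9.4 and 9.93 CPM in Control and 8.84, 12.6 and 19.4 CPM with CPI-613 (0.60, SE 0.34; adjusted 0.42, SE 0.22).

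The uncoupling group is named by sequence likeness to the uncoupling proteins, and it gave no call. SLC25A14 had a change of 0.27 (SE 0.26), SLC25A30 of -0.09 (SE 0.40), turning to 0.20 after adjustment, and SLC25A27, the least expressed at 0.28 to 3.07 FPKM, of -0.19 (SE 0.72).

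Among carriers whose substrate is not settled, SLC25A35 measured 8.63, 6.76 and 6.88 CPM in Control and 4.21, 4 and 5.42 CPM with CPI-613, below Control in every library. Its log2 fold change was -0.71 (SE 0.26) and -0.85 (SE 0.23) adjusted (edgeR, Benjamini-Hochberg adjusted p = 0.269 and 0.054, range over the alternatives 0.028 to 0.888). The adjusted value passed without Control replicate 2 (-0.99, edgeR, adjusted p = 0.0465) or without CPI-613 replicate 1 (-0.98, edgeR, adjusted p = 0.028). Of all genes, the first of these fits called 690 higher and 703 lower of 12853. The second called 1331 higher and 1198 lower of 12741. SLC25A34, a close relative, measured 0.784, 1.63 and 0.993 CPM in Control and 1.93, 2.31 and 2.25 CPM with CPI-613 (0.92, SE 0.35; adjusted 0.81, SE 0.30; edgeR, Benjamini-Hochberg adjusted p = 0.281 and 0.142). It was at 0.24 to 0.7 FPKM, where the groups overlapped. SLC25A35 overlaps RANGRF and SLC25A34 overlaps SLC25A34-AS1 on the opposite strand, so the same limit would apply if strand was not used in counting. Other members, SLC25A11, SLC25A22, SLC25A25, SLC25A26 and SLC25A40 among them, also have opposite-strand genes with overlapping exons. SLC25A43 and SLC25A46, an outer membrane protein of mitochondrial shape, had changes of -0.53 (SE 0.33) and -0.53 (SE 0.52).

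**Figure D4:**
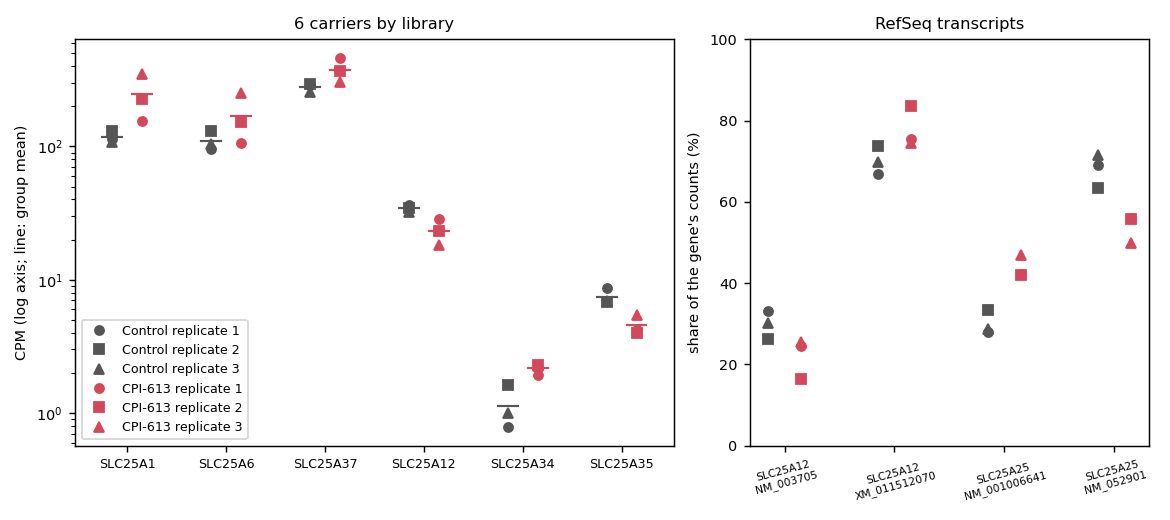
Left, CPM (log axis) of 6 carriers, 1 point per library with a line at the group mean; the CPI-613 libraries lie above Control for SLC25A1, SLC25A37 and SLC25A34 and below for SLC25A12 and SLC25A35. Right, share of the gene's estimated counts (%) in 2 transcripts each of SLC25A12 and SLC25A25; NM_001006641 lies at 28.0% to 33.3% in Control and 42.0% to 46.8% with CPI-613.

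In all, 4 members (SLC25A1, SLC25A29, SLC25A34 and SLC25A37) had CPI-613 libraries above all Control libraries and 3 (SLC25A12, SLC25A13 and SLC25A35) below, of 40 tested, where 21% of all genes tested lay apart. After adjustment there were 4 above (SLC25A1, SLC25A6, SLC25A23 and SLC25A34) and 3 below (SLC25A12, SLC25A35 and SLC25A42), where 31.3% of all genes lay apart. The summed level of the family was 1417, 1619 and 1380.3 FPKM in Control and 1368, 1455 and 1786 FPKM with CPI-613, with overlap.

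The differences between libraries of 1 group followed the base composition of the transcript. Across 40 members, CPI-613 replicate 3 minus the mean of CPI-613 replicates 1 and 2, in log2(CPM + 0.5), correlated with GC content at r = 0.75 (Spearman 0.75), and at r = 0.76 across 12604 genes. For Control replicate 2 minus the other Control libraries r was 0.54 across members and 0.57 across genes. For CPI-613 replicate 1 minus replicate 2 it was -0.65 across members and -0.68 across genes. For Control replicate 1 minus replicate 3 it was 0.32 across members and 0.23 across genes. These are correlations across genes of the same libraries, which are not independent points. In CPI-613 replicate 3 the 12 members with GC content under 45% lay at a median of -1.09, 11 of them below 0, and the 16 members at 55% or more lay at a median of 0.65, all above 0. In Control replicate 2 the same members lay at medians of -0.19, 8 of 12 below 0, and 0.30, 14 of 16 above 0. In CPI-613 replicate 3 SLC25A36, at 37.4% GC, had the lowest value, -2.12, and SLC25A10, at 64.9%, the highest, 1.08. The SLC25A39 to SLC25A40 and SLC25A25 to SLC25A24 ratios pair a GC-rich gene (62% and 55.7%) with an AT-rich relative (34.2% and 38.7%), the contrast seen in the printed sequences. The GC limits and these pairs were chosen after values were seen.

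**Figure D5:**
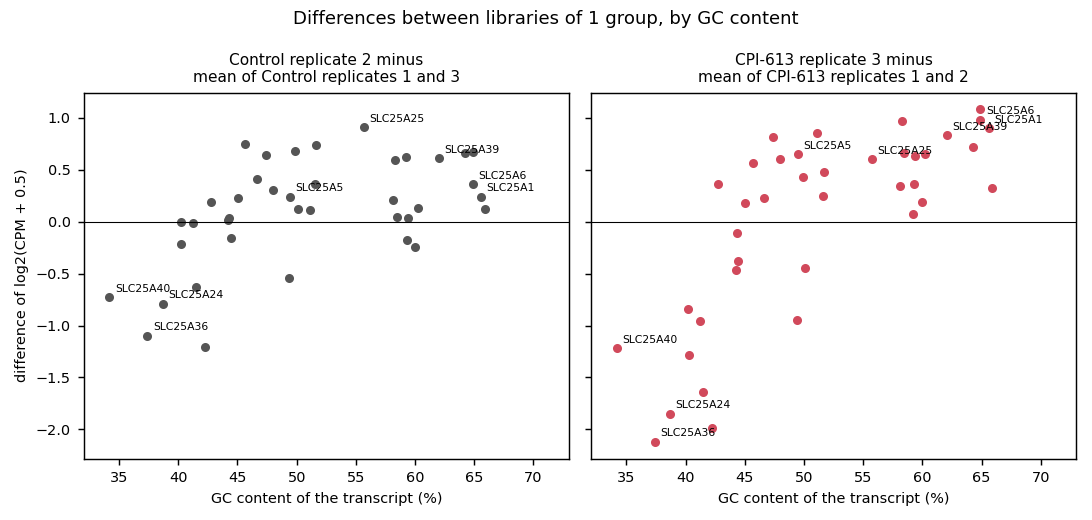
Difference of log2(CPM + 0.5) between 1 library and the mean of the other 2 of its group, against the GC content (%) of the transcript, 1 point for each of 39 tested carriers. In CPI-613 replicate 3 the values run from -2.12 to 1.08 with GC content, and in Control replicate 2 they run from -1.21 to 0.91.

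Genes that work with the carriers were counted from lists set beside them. Of 4 tested carriers of the family under other names (UCP2 and MTCH1 among them), 13 other membrane transporters and 13 genes of carrier import, 0 were called in either direction, with or without adjustment, and the medians were 0.16, -0.04 and -0.03. Of 24 tested enzymes on either side of the carriers, 4 passed as higher and 0 as lower, where 1.94% of all genes tested passed as higher. Their median log2 fold change was 0.59, and 11 passed as higher after adjustment, where 6.12% of all genes did. ACLY, which cleaves the citrate that SLC25A1 exports, rose from 334 ± 32 to 783 ± 184 CPM (1.23, SE 0.23, edgeR, Benjamini-Hochberg adjusted p = 0.0367). PCK2, the mitochondrial phosphoenolpyruvate carboxykinase, rose from 16.8 ± 2.32 to 235 ± 71.6 CPM, ARG2, the mitochondrial arginase that yields ornithine, from 15.5 ± 2 to 56.9 ± 4.92 CPM, and MTHFD2, an enzyme of mitochondrial folate metabolism, from 117 ± 13.1 to 318 ± 35 CPM. These lists were chosen with earlier results of these data known, so their direction is a description.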

How the data were processed

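RNA of HN12 cells was sequenced in 3 Control and 3 CPI-613 libraries. The tools in the submitters' processing notes, given without roles, are STAR 2.5, HTSeq, CASAVA, DESeq2 and edgeR 3.16.5, with the build hg38. For counter, annotation and strand the entry is: not given in the sources used here. One deposited table holds the authors' estimated counts per RefSeq transcript. The other deposited table holds values per gene with no unit named, taken as FPKM because in 1430 genes with a single transcript the worth of 1 count followed the inverse library total within 0.59%.

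In 27 transcripts 1 cell holds a date. They were left out, and none of the 204 transcripts of members was among them. Estimated counts were summed per gene, rounded, filtered (filterByExpr, minimum count 10, total 15), TMM-scaled and tested by the quasi-likelihood test of edgeR 4.0.16, group as the one covariate, Benjamini-Hochberg threshold 0.05. The 53 genes without a symbol took 0.016% of counts. The SE is the change over the square root of F. Libraries held 11531942 to 15486513 counts, and all pairs differed by more than counting noise, so the number of libraries sets the precision. Control replicates 1 and 3 were by far the closest pair, at a chi-square per degree of freedom of 3.87. Every other pair was at 34.33 or more.

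The adjusted fit uses per-library splines on GC content and length as offsets. GC content and length came from the GENCODE 29 transcript paired with the RefSeq transcript of most counts (14968 genes), or else the longest (1154). A first run took the longest transcript for all genes, and that definition was replaced after its results were seen; it stays among the alternatives. Transcript shares were compared where the mean count was at least 50 and the mean share 5% to 95%, limits set with values in view.

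Alternatives were other scalings and filters, DESeq2 1.42.0, limma 3.58.1 with voom or on log2(FPKM + 1) and log2(FPKM + 0.1), a replicate block, the GC and length adjustment and leaving out each library. The scripts were tested on simulated data. Members, lists and tests were chosen with earlier results of these data known. Members named in the text were, per substrate group, the 2 tested members with the largest change and the 2 with the highest level, every call, and the members not tested. One member that this rule names is not reported here, though it stays in the counts. The others, and the 6 carriers plotted by library, were added after values were seen. A search of 4 short motifs in RefSeq promoters of the members was also run and is not reported. Genes are placed by RefSeq and sequences by GENCODE 29, both on GRCh38.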

Additional observations from a re-analysis of the deposited data

How the results depend on the processing

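Over the 39 tested members whose change is given, 18 kept their direction in every fit run, 13 of them above 0 and 5 below, with the 11 values that round to 0 (1 each of SLC25A33 and SLC25A39 among them) counted as kept. In fits on all libraries 457 of 507 values kept the direction and 50, in 12 members, did not; 4 values passed the threshold, all of SLC25A1. Scaled by the upper quartile, SLC25A11, SLC25A15 and SLC25A45 turned to -0.04, -0.06 and -0.01. Scaled by library size only, SLC25A4, SLC25A5, SLC25A11, SLC25A15, SLC25A45 and SLC25A51 were at -0.09, -0.09, -0.15, -0.15, -0.10 and -0.01, by limma on log2(FPKM + 1) at -0.07, -0.11, -0.18, -0.11, -0.03 and -0.03, and on log2(FPKM + 0.1) at -0.08, -0.11, -0.18, -0.12, -0.05 and -0.05. The median of the members moved to -0.12, -0.11 and -0.12 in these 3 fits, in which the median of all genes was -0.17, -0.16 and -0.19. GC- and length-adjusted, SLC25A5, SLC25A11, SLC25A16, SLC25A17 and SLC25A30 were at -0.03, -0.13, 0.15, 0.24 and 0.20, with the replicate block added at -0.04, -0.13, 0.15, 0.13 and 0.20, and by the longest transcript at -0.04, -0.15, 0.12, 0.48 and 0.19. In the same 3 fits SLC25A15 was at -0.08, -0.06 and -0.10, SLC25A32 at 0.24, 0.22 and 0.21, SLC25A40 at 0.21, 0.20 and 0.17 and SLC25A45 at -0.04, -0.04 and -0.05. SLC25A13 was at 0.05 and, with the block, at 0.03. SLC25A3 moved from 0.28 to 0.70 (SE 0.43) between the 2 transcript definitions. The count of members called higher was 1 by DESeq2, GC- and length-adjusted, adjusted with the replicate block and adjusted by the longest transcript, in place of 0; the cause was not tested.

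Leaving out a library gave 0 to 1 members called higher and 0 lower, and 1 higher and 0 to 1 lower in the adjusted fits. The median ranged from 0.00 to 0.24 and from 0.05 to 0.21. The SLC25A5 share difference ranged from -5.94 to -3.61 percentage points, and the summed level from -60.4 (without CPI-613 replicate 3) to 148.7 FPKM, against 64.4 with all libraries. Values on the other side of 0 came in 20 members, whose ranges in unadjusted and adjusted fits were -0.01 to 0.24 and -0.09 to 0.39 in SLC25A4, -0.11 to 0.31 and -0.16 to 0.06 in SLC25A5, -0.51 to 0.21 and -0.47 to -0.22 in SLC25A10, -0.31 to 0.33 and -0.25 to -0.03 in SLC25A11, -0.15 to -0.09 and -0.17 to 0.21 in SLC25A13. They were -0.10 to 0.30 and -0.19 to 0.12 in SLC25A15, -0.43 to 0.09 and 0.01 to 0.34 in SLC25A16, -0.22 to 0.03 and -0.25 to 0.53 in SLC25A17, -0.29 to 0.22 and -0.30 to -0.07 in SLC25A22, 0.08 to 0.64 and -0.03 to 0.66 in SLC25A26. Further ranges were -1.11 to 0.28 and -0.62 to 0.22 in SLC25A27, 0.12 to 0.33 and -0.07 to 0.21 in SLC25A28, -0.44 to 0.25 and 0.12 to 0.28 in SLC25A30, -0.27 to 0.11 and 0.12 to 0.42 in SLC25A32, -1.39 to 0.05 and -0.44 to 0.00 in SLC25A36. The last were 0.10 to 0.56 and -0.03 to 0.36 in SLC25A38, -0.73 to 0.05 and 0.12 to 0.37 in SLC25A40, -0.44 to 0.09 and -0.52 to -0.12 in SLC25A41, -0.27 to 0.15 and -0.23 to -0.12 in SLC25A42, 0.00 to 0.22 and -0.29 to 0.12 in SLC25A45. Over all genes, 401 calls became 0 without Control replicate 1 or 3 and 7 without CPI-613 replicate 2. Without Control replicate 2 there were 127 higher and 95 lower. Calls were 465 higher and 435 lower without CPI-613 replicate 1, and 353 higher and 302 lower without CPI-613 replicate 3.

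Same-numbered libraries deviated together at correlations of 0.457, -0.096 and -0.609, so the numbers were not taken to pair them. With the replicate block 0 members and 190 genes (109 higher, 81 lower) were called, and SLC25A1 was at 0.98 (SE 0.31). Among members, the GC and length adjustment changes 1 call on all libraries, that of SLC25A1.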
